A study of Mus musculus with 7 samples.

Results

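The 3 genes described here were chosen by name from the 47729 genes of the forebrain RNA-seq data, *Cxcl12* and the genes of its receptors, *Cxcr4* and *Ackr3* (3 of 47729). All 3 had counts in each library and passed the filter on low counts. The forebrain was collected at postnatal day 15 (P15) from F1(C57BL/6 X 129Sv) mice that carried the null allele Lhx6tm2Vpa on 1 chromosome (*Lhx6*+/-, control) or on both (*Lhx6*-/-, mutant), so the control mice were also short of 1 functional copy. Each library was made from the pooled RNA of 2 animals, and there were 4 control and 3 mutant libraries. The pools are separate samples in the records, and the study describes mutants and controls as littermates, but which pools shared a litter is not given here, and p-values measure the spread between pools. RNA integrity numbers ran from 9 to 10 in controls and from 9.8 to 10 in mutants, and the pools differed in the sex of the animals. The columns of the count table carry a genotype and a library number only, so neither sex nor RNA integrity could be assigned to a library. Because RNA was taken from the whole forebrain, fewer cells of a type and less RNA per cell cannot be told apart.

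CXCL12 is a secreted chemokine made by the meninges, by cells of blood vessels and by some neurons, and it guides and holds migrating cells in the developing cortex and hippocampus. CXCR4 is the G-protein-coupled receptor through which CXCL12 signals. ACKR3, also called CXCR7, is an atypical receptor that couples to arrestin and takes CXCL12 up from the extracellular space, and it thereby sets how much ligand CXCR4 meets. Both receptors are carried by interneurons that migrate from the medial ganglionic eminence (MGE) to the cortex, the lineage that depends on the LIM-homeodomain factor LHX6. In embryonic interneurons *Ackr3* has been described as a gene that LHX6 regulates.

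*Cxcl12* (ENSMUSG00000061353) lies on the plus strand at chr6:117168535-117181367 of GRCm38, *Cxcr4* (ENSMUSG00000045382) on the minus strand at chr1:128588199-128592293, and *Ackr3* (ENSMUSG00000044337) on the plus strand at chr1:90203980-90216751. No other gene of the deposited annotation overlaps any of them. Reads were 36 bases long, and RSEM, which the authors used, splits reads that match more than 1 gene. For *Cxcr4* and *Ackr3* 0 words of 36 bases in their transcripts occurred in another gene, and for *Cxcl12* 2 of 8209 did, both in *Tia1*. The gene count of *Cxcl12* adds up its transcripts, 3 of which are coding. These share 267 coding bases and differ only at the 3′ end of the coding sequence. The shared part and the 3 ends are shown because a gene count cannot separate the isoforms. Capitals mark the start codon in the shared part and the stop codon in each end, all are written spliced and 5′ to 3′ on the plus strand of chromosome 6 (GRCm38, in a later annotation than the deposited one), and the longest end lies at chr6:117176087-117176179.
Cxcl12 shared coding bases: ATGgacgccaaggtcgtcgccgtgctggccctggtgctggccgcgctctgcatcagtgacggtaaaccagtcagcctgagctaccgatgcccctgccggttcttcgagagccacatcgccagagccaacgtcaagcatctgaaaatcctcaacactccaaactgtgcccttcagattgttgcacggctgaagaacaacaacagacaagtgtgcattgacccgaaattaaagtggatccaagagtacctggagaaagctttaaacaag
ENSMUST00000112866 end (89 codons, the alpha isoform): TAA
ENSMUST00000112871 end (93 codons, the beta isoform): aggctcaagatgTGA
ENSMUST00000073043 end (119 codons, the gamma isoform): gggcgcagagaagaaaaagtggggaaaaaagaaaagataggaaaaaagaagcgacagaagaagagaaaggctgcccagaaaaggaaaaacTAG
All values given here are totals over these isoforms.

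LHX6 is a DNA-binding factor, and the 250 bases before the RefSeq start of each gene (GRCm38.p6) were searched on both strands for the homeodomain core pair TAATTA, the TATA box TATAAA, the GC box GGGCGG and the E-box CACGTG. The windows are shown as the sequence next to the start sites whose output the counts measure, each 5′ to 3′ on the strand of its gene, with matches to any of these motifs in capitals and overlapping matches run together.
Cxcl12 (chr6:117168285-117168534, plus strand): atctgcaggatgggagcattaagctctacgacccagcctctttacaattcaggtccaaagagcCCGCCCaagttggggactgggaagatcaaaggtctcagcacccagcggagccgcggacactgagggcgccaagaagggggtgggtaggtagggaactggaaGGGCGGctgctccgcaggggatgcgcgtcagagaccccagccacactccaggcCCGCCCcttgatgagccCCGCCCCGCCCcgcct
Cxcr4 (chr1:128592300-128592549, minus strand): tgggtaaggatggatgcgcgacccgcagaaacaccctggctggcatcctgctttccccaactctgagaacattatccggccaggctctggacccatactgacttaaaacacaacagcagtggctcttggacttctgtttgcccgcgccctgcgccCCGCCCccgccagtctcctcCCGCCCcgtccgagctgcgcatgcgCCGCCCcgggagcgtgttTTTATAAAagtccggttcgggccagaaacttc
Ackr3 (chr1:90203730-90203979, plus strand): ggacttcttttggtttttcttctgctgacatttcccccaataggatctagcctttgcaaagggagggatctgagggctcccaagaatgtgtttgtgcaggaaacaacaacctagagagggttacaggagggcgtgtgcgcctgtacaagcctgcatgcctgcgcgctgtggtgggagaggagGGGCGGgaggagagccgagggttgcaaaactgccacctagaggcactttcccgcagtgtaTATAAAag
The *Cxcl12* window held 5 GC boxes and 0 TATA boxes at a GC content of 64.4%. The *Cxcr4* window held 3 GC boxes and 2 overlapping matches to the TATA box at 61.2%, and the *Ackr3* window held 1 of each at 54%. Neither TAATTA nor CACGTG occurred in any of the 3 windows. Among all 32851 windows of the same length, 32.7% held a GC box, 12.4% a TATA box, 4.84% TAATTA and 6.02% CACGTG. A missing match says only that these letters are not in these windows, and no binding was measured here.

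Libraries summed to between 32556304 and 38069151 expected counts. CPM are counts scaled to a common library size, and 3 counts, the most that a count of 0 allows, came to 0.0788 to 0.0921 CPM. The lowest count of any of the 3 genes was 80 (*Cxcr4*). The first principal component of log2 CPM (39.6% of the variance) set libraries 2, 3 and 5 apart from libraries 10 to 13, and both sets hold both genotypes, so differences of the 3 genes and of their ratios to other genes are given within each set as well. What the numbers stand for is not stated. The targeted gene *Lhx6* had 533.9 ± 58.5 normalised counts in controls and 72.5 ± 3.55 in mutants (SD, n = 4 and 3), a log2 fold change of -2.88 (adjusted p = 5.99e-05 from edgeR). Of 19684 tested genes, 954 (4.85%) passed an adjusted p of 0.05 in edgeR's quasi-likelihood test, 2.97% higher and 1.87% lower in mutants. For 19.7% of tested genes the values of the control and mutant libraries did not overlap. Of the 5 genes listed for the forebrain, *Emx1* among them, the summed level was 377.4 to 511.8 CPM in controls and 508.9 to 572 CPM in mutants. Of the 5 genes listed for the hindbrain 4 were below the filter, *Hoxa2* and *Hoxb2* among them, and the summed level was at most 0.789 CPM in any library.

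No difference between the genotypes was detected for the ligand or for either receptor. None of the 3 genes passed the test (0 of 3, where 4.85% of all tested genes did), and for none did the genotypes separate (0 of 3, where 19.7% of tested genes did). At an unadjusted p of 0.05 the count was also 0, where 18.2% of tested genes passed, and DESeq2 and limma-voom each called 0 of the 3, where they called 8.8% and 4.87% of the genes. The 95% intervals of the fold changes, which state how large a difference these libraries could have hidden, ran from 0.800 to 1.16 for *Cxcl12*, from 0.824 to 1.45 for *Cxcr4* and from 0.784 to 1.35 for *Ackr3*.

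*Cxcl12*, the ligand, had 2677, 2153, 2275 and 2514 normalised counts in the controls (libraries 2, 3, 10 and 11, in that order here and for the other genes), and 1968, 2633 and 2345 in the mutants (libraries 5, 12 and 13). Mutant library 5 lay below all controls, while mutant libraries 12 and 13 lay within the control range, so the genotypes overlapped. The means were 2405 ± 235.5 in controls and 2315 ± 333.7 in mutants (SD, n = 4 and 3). The log2 fold change of mutant over control was -0.05 (standard error 0.117, 95% interval -0.32 to 0.21, adjusted p = 0.869 from edgeR), and 75% of tested genes had a smaller p. An exact two-sided permutation test over the 35 arrangements of the libraries gave p = 0.686, where the smallest p possible in this design is 0.0571. Within libraries 2, 3 and 5 *Cxcl12* was at 2415 normalised counts in controls and at 1968 in the mutant, and within libraries 10 to 13 at 2395 in controls and 2489 in mutants. The sign of the difference thus turned between the sets, with log2 fold changes of -0.30 and 0.07. Without control library 2 the log2 fold change was 0.0009 and without mutant library 5 it was 0.06. Counting error at 2054 to 2544 raw counts of *Cxcl12* is 1.98% to 2.21%, well below the coefficients of variation of 9.79% among controls and 14.4% among mutants.

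*Cxcr4*, the signalling receptor, had 87.7, 113.5, 108.4 and 85.4 normalised counts in the 4 control pools and 126.5, 100.4 and 96.6 in the 3 mutant pools. Mutant library 5 was highest of all and the other mutant libraries lay among the controls. The means were 98.8 ± 14.3 in controls and 107.8 ± 16.3 in mutants (SD, n = 4 and 3), a log2 fold change of 0.13 (standard error 0.178, 95% interval -0.28 to 0.53, adjusted p = 0.794 from edgeR). The exact permutation test gave p = 0.457. Within libraries 2, 3 and 5 the means were 100.6 in controls and 126.5 in the mutant, and within libraries 10 to 13 they were 96.9 and 98.5, log2 fold changes of 0.33 and 0.03. The receptor was thus higher in the mutants in both sets, but in libraries 10 to 13 by less than the spread between pools, and the set 2, 3 and 5 holds only mutant library 5. Without that library the log2 fold change was 0.0058, and with each library left out in turn it ran from 0.0058 to 0.20. Raw counts of 80 to 132 give a counting error of 8.70% to 11.2%, and the coefficient of variation was 14.5% among controls and 15.1% among mutants, so counting makes up a larger part of the spread for *Cxcr4* than for the other genes.

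*Ackr3*, the scavenging receptor, had 341.1, 479, 454.8 and 511.2 normalised counts in the 4 control pools and 366.9, 508.2 and 503.8 in the 3 mutant pools. All mutant libraries lay within the range of the controls. The means were 446.5 ± 74 in controls and 459.6 ± 80.3 in mutants (SD, n = 4 and 3), a log2 fold change of 0.04 (standard error 0.172, 95% interval -0.35 to 0.43, adjusted p = 0.940 from edgeR). For *Ackr3* 86.9% of tested genes had a smaller p, and the exact permutation test gave p = 0.743. The 2 lowest libraries, control 2 and mutant 5, were of different genotypes and both belonged to the set 2, 3 and 5, whose mean over its libraries was 395.6 against 494.5 for libraries 10 to 13. Within these sets the log2 fold change was -0.16 (410 in controls, 366.9 in the mutant) and 0.08 (483 and 506). The sign also turned to -0.02 with the set as a covariate, to -0.07 without control library 2, and to -0.04 and -0.03 without mutant libraries 12 and 13. Although no other gene was found to hold its 36-base words, the count of *Ackr3* was not a whole number in any of the 7 libraries, whereas for *Cxcl12* this held in 1 library and for *Cxcr4* in 2. Which genes its reads were shared with was not tested, and words shorter than 36 bases, as trimmed reads can be, were not searched. Counting error at 311 to 532 counts is 4.34% to 5.67%, below the coefficients of variation of 16.6% and 17.5%.

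**Figure D1:**
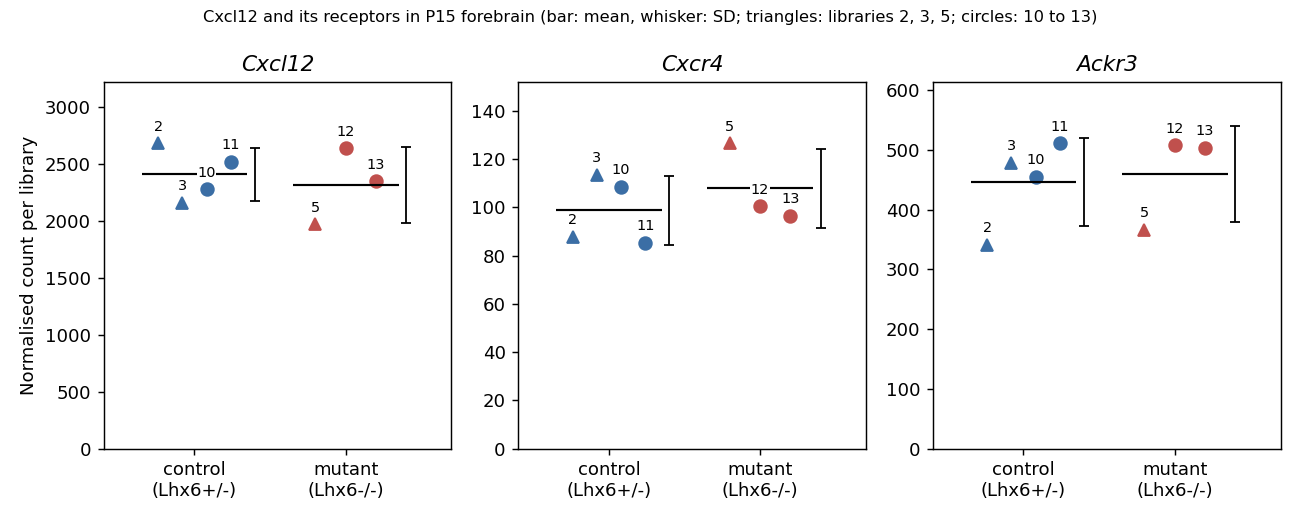
Normalised counts of *Cxcl12*, *Cxcr4* and *Ackr3* (y axes, each from 0) in control and mutant libraries (x axis). Points are libraries with their numbers, triangles libraries 2, 3 and 5 and circles 10 to 13, lines are group means and whiskers SD; control and mutant libraries overlap for each gene.

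**Figure D2:**
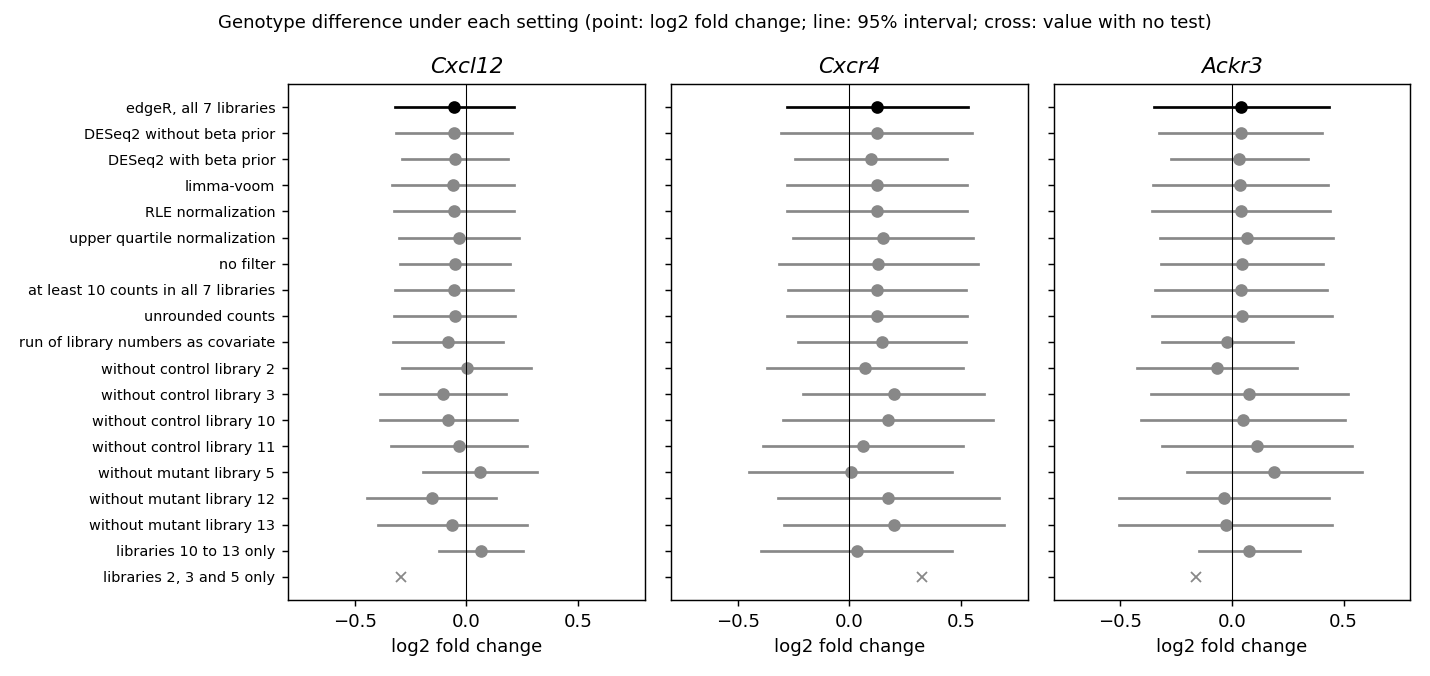
Log2 fold change of mutant over control (x axis) for each of the 3 genes under the main test (black) and 18 other settings (grey, y axis), with 95% intervals as lines and a cross where no test was made. Each interval spans 0 for each gene.

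Levels of different genes can be compared only per length, and were expressed as CPM per kb of the exons of a gene. *Cxcl12* was at 8.12 CPM per kb (mean of 7 libraries, range 6.75 to 9.18), *Ackr3* at 3.79 (2.86 to 4.28) and *Cxcr4* at 1.59 (1.32 to 1.96). The ranges of the 3 genes over the libraries did not overlap, and the order ligand, atypical receptor, signalling receptor was the same in each library of both genotypes. Among tested genes, whose median level was 3.36 CPM per kb, *Cxcl12* exceeded 68.9%, *Ackr3* 52.4% and *Cxcr4* 37.4%. By genotype the levels were 8.25 ± 0.808 and 7.94 ± 1.15 CPM per kb for *Cxcl12*, 3.74 ± 0.62 and 3.85 ± 0.673 for *Ackr3*, and 1.53 ± 0.221 and 1.67 ± 0.252 for *Cxcr4* (control and mutant, SD, n = 4 and 3). The order was kept when the length of the longest transcript was used in place of all exons, which put *Cxcl12* at 11.8 CPM per kb. The exons of *Cxcl12*, which include those of a transcript with a retained intron, cover 8176 bases and its longest transcript 5627.

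**Figure D3:**
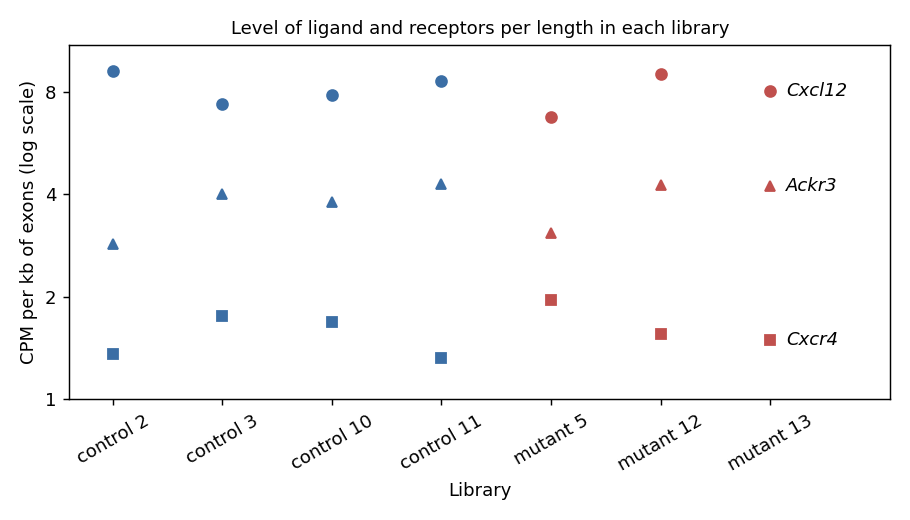
Level of each gene in CPM per kb of exons (y axis, log scale) in the 7 libraries (x axis; blue control, red mutant). Circles are *Cxcl12*, triangles *Ackr3* and squares *Cxcr4*; the 3 genes keep the same order in each library.

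The balance of ligand and receptors within a library is the log2 ratio of their levels per length. *Cxcl12* over *Cxcr4* was 2.44 ± 0.345 in controls and 2.25 ± 0.407 in mutants, and over all libraries the ligand was 5.12 times as abundant as this receptor. *Cxcl12* over *Ackr3* was 1.15 ± 0.361 and 1.05 ± 0.107, or 2.16 times over all libraries. *Ackr3* over *Cxcr4* was 1.28 ± 0.279 and 1.2 ± 0.477, or 2.37 times. For none of the 3 ratios did the genotypes differ by more than the SD between libraries. The single library furthest from the rest was control 2 for *Cxcl12* over *Ackr3*, at 1.68 where the other libraries lay between 0.88 and 1.14.

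After the values were seen, the 3 pairs of genes were compared over the 7 libraries. Normalised counts of *Cxcl12* and *Cxcr4* ran in opposite directions, with Pearson's r = -0.879 (permutation p = 0.0143, 0.0429 after Benjamini-Hochberg adjustment over the 3 pairs) and Spearman's rho = -0.821 (permutation p = 0.0341, adjusted 0.102). Mutant library 5 had the lowest *Cxcl12* and the highest *Cxcr4*, and control libraries 2 and 11 combined high *Cxcl12* with the lowest *Cxcr4*. Without control library 2 and mutant library 5, the libraries farthest from the median of *Cxcl12*, r was -0.683 over 5 libraries. The sign was the same within controls (r = -0.936) and within mutants (r = -0.858), groups of 4 and 3 libraries that were not tested, and r was not computed within the sets 2, 3 and 5 and 10 to 13, which are as small. A large r in groups this small says little, as the values of *Ackr3* below show. By the rank test the relation of *Cxcl12* to *Cxcr4* did not pass adjustment. *Ackr3* followed neither gene over all libraries, with r = 0.149 to *Cxcl12* (permutation p = 0.726, rho = 0.179, permutation p = 0.713) and r = -0.183 to *Cxcr4* (permutation p = 0.667, rho = -0.393, permutation p = 0.396). Within controls and within mutants r of *Ackr3* was -0.606 and 0.928 to *Cxcl12*, and 0.300 and -0.988 to *Cxcr4*. Over the 5 libraries left without control library 2 and mutant library 5, r of *Ackr3* to *Cxcl12* was 0.706, and over the 5 left without control library 11 and mutant library 5, the farthest from the median of *Cxcr4*, its r to *Cxcr4* was 0.625.

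**Figure D4:**
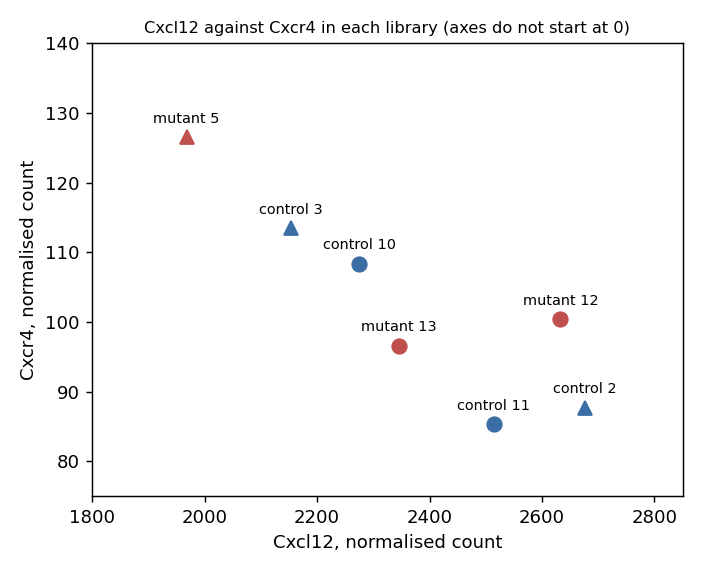
Normalised counts of *Cxcl12* (x axis) and *Cxcr4* (y axis) in each library (blue control, red mutant; triangles libraries 2, 3 and 5, circles 10 to 13; axes do not start at 0). Libraries with more *Cxcl12* tended to have less *Cxcr4*, and both genotypes lie along the same trend.

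The genes whose log2 CPM ran most closely with each of the 3 were taken from all tested genes, as a description over 7 libraries that share depth and set. For *Cxcl12* they were *Gm26699* (r = 0.960), *Clic6* (0.95) and *Chadl* (0.948). *Clic6*, a chloride channel gene known for its level in the choroid plexus, had 159.9 ± 63.2 normalised counts in controls and 134.8 ± 44.1 in mutants. For *Cxcr4* they were *Acvr1* (0.992), *Pced1b* (0.986) and *Dyrk3* (0.973), and for *Ackr3* *Angel2* (0.989), *Cldn12* (0.981) and *Gm44335* (0.980). *Acvr1* encodes a type I receptor of the BMP family and *Cldn12* a claudin. None of these 9 genes passed the test between genotypes, and 2, 5 and 21 genes had an r above 0.95 to *Cxcl12*, *Cxcr4* and *Ackr3*. None of the 3 was among the genes most like another.

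Other genes of the CXCL12 pathway were examined by role in a list of 29, of which 28 were tested. Among them 1 was higher in mutants (2.97% of all tested genes were) and 2 were lower (1.87% of all tested genes were), and the median log2 fold change was -0.01, as over all tested genes (-0.01). Of the other ligands that bind these receptors, *Mif* had a log2 fold change of 0.35 (adjusted p = 0.252 from edgeR) and *Cxcl11* was below the filter. None of the 7 genes of ligand processing and receptor partners passed, including *Dpp4*, a peptidase that trims CXCL12, at 207.1 ± 14.7 and 163.3 ± 16.3 normalised counts. The largest difference in that group was that of *Mmp14*, a membrane metalloproteinase that can cleave the ligand, at 0.40 on the log2 scale (adjusted p = 0.340 from edgeR). The 3 genes that passed were among the 19 transducers and desensitizers.

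*Adrbk2*, which encodes the receptor kinase GRK3 that desensitizes CXCR4, fell from 3457 ± 286.9 to 2488 ± 138.4 normalised counts, a log2 fold change of -0.47 (95% interval -0.67 to -0.28, adjusted p = 0.0188 from edgeR). *Ptk2b*, the focal adhesion-related kinase PYK2, fell by 0.53 on the log2 scale (95% interval -0.79 to -0.28, adjusted p = 0.0337 from edgeR). *Stat3*, a transcription factor activated by many cytokine receptors, rose from 1957 ± 92.8 to 2502 ± 38 normalised counts, a log2 fold change of 0.35 (95% interval 0.20 to 0.51, adjusted p = 0.0238 from edgeR). These kinases and STAT3 serve many receptors besides CXCR4. The 2 arrestin genes had log2 fold changes of 0.28 (*Arrb1*) and -0.10 (*Arrb2*), *Adrbk1*, which encodes GRK2, of -0.13, and *Mapk3*, which encodes ERK1, of -0.42 (adjusted p = 0.0963 from edgeR). The 3 calls were lost in some fits with 1 library left out, while the log2 fold changes kept their sign. *Adrbk2* did not pass without control library 10 (-0.48), mutant library 12 (-0.46) or mutant library 13 (-0.44). *Ptk2b* did not pass without control library 2, 10 or 11 or mutant library 5 or 13 (-0.57 to -0.46). *Stat3* did not pass without control library 10 or 11 or any one of the mutant libraries (0.32 to 0.37). With the set of libraries as a covariate *Adrbk2*, *Ptk2b* and *Stat3* each passed (adjusted p = 0.0062, 0.0029 and 0.0072 from edgeR). Of the 28 genes 0 were called without control library 10 or mutant library 13, 1 without control library 11, mutant library 5 or mutant library 12, and 7 with the set of libraries as a covariate. Calls over all genes moved the same way from 954 of 19684 in the main test. They were 513 of 19455 without control library 10 and 302 of 19375 without mutant library 13. Without control library 11, mutant library 5 or mutant library 12 they were 589, 458 and 387, and with the covariate 2205 of 19684.

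The chemokine family outside the 3 genes holds 59 genes in the table, of which 31 were below the filter and 28 were tested. Among these 1 was higher and 1 was lower in mutants (2.97% and 1.87% of all tested genes), and the median log2 fold change was 0.14. *Ccl17*, a ligand of CCR4, rose from 53 ± 15.1 to 144.3 ± 51.7 normalised counts (log2 fold change 1.45, adjusted p = 0.0292 from edgeR). *Ccl27a* had 2088 ± 277 and 1258 ± 170.2 normalised counts (log2 fold change -0.73, adjusted p = 0.0162 from edgeR), but 53.3% of its 36-base words occur in near-identical copies, so its count is uncertain. *Ccl17* did not pass without control library 10 or 11 or mutant library 5 or 13 (1.15 to 1.5), and *Ccl27a* not without mutant library 12 (-0.67) or 13 (-0.68), so that 0 were called without mutant library 13 and 1 without control library 10 or 11 or mutant library 5 or 12. In these fits calls over all genes also fell, from 954 in the main test to between 302 and 589. *Cxcl10*, *Ccl12* and *Ccl21b* had larger or similar log2 fold changes of 1.77, 1.44 and -1.24 that did not pass (adjusted p = 0.166, 0.351 and 0.545 from edgeR). None of the 13 tested receptors of the family was called (0 of 13). *Ackr1*, another atypical receptor, known from the endothelium of venules, had means of 1817 in both genotypes.

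*Erbb4*, the receptor of neuregulins, was examined beside the receptors because it acts in the same migrating interneurons. *Erbb4* had 2000, 1778, 2746 and 2675 normalised counts in controls and 1274, 1567 and 1409 in mutants, a log2 fold change of -0.70 (95% interval -1.07 to -0.33, adjusted p = 0.0486 from edgeR), and it was called neither by limma-voom nor with upper quartile scaling nor without any one library other than control library 3 (-0.78 to -0.60). Each mutant library of *Erbb4* lay below each control library. A fall of *Ackr3* as large as the estimate for *Erbb4* lay outside the 95% interval of *Ackr3*, -0.35 to 0.43. The interval of *Erbb4* reached up to -0.33, however, so the intervals of these genes overlapped. The log2 ratio of *Ackr3* to *Erbb4* within a library, chosen after the values were seen, was -2.36 ± 0.322 in controls and -1.64 ± 0.156 in mutants. It was picked because *Erbb4* was lower in each mutant library, so its separation by genotype restates that fall, and no test of it is given. Mutants and controls differed in it by 0.43 in the set 2, 3 and 5 and by 0.94 in the set 10 to 13.

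In the list of 17 genes of interneuron migration and LHX6 targets, 4 were lower and 0 were higher in mutants (1.87% and 2.97% of all tested genes), with a median log2 fold change of -0.12. Besides *Erbb4*, those that fell included *Maf* (-0.45, adjusted p = 0.0248 from edgeR), a transcription factor of MGE-derived interneurons. *Nkx2-1*, the MGE patterning factor, had a log2 fold change of 1.03 at 29.7 and 60.7 normalised counts (adjusted p = 0.191 from edgeR), and *Dlx6* one of -0.41 (adjusted p = 0.284 from edgeR). *Maf* was not called without control library 10 or 11 or any one of the mutant libraries (-0.48 to -0.42). Of the 17 genes 0 were called without mutant library 5 or 13, 1 without control library 10 or 11 or mutant library 12, and 2 without control library 2. In these fits calls over all genes also fell, from 954 in the main test to between 302 and 679. *Robo2* and *Epha4*, guidance receptors, had log2 fold changes of 0.22 and -0.24 that did not pass (adjusted p = 0.258 and 0.115 from edgeR).

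Cells that make the ligand or carry the receptors were followed by marker lists. Over all tested genes 4.85% passed the test, 2.97% higher and 1.87% lower in mutants. With 0 passing, a list of 10 or fewer markers thus cannot be set apart from other genes. Of the 10 markers of endothelium 0 passed the test, though all 10 had a positive log2 fold change (median 0.32, with 0.38 for *Cldn5* and 0.32 for *Pecam1*), and their summed level was 264.8 to 301.3 CPM in controls and 334.4 to 360.2 CPM in mutants, without overlap. Among single tested genes 19.7% did not overlap, and no such share was computed for sums. Of the 8 markers of mural cells 1 (*Tagln*) was higher, and the summed level was 266.2 to 290.2 and 308.5 to 365.5 CPM, also without overlap. The log2 ratio of *Cxcl12* to the endothelial sum differed between mutants and controls by -0.37 and that to the mural sum by -0.39, each with p = 0.114 in the exact two-sided permutation test (0.171 after adjustment over 6 ratios). Within the set 2, 3 and 5 these differences were -0.59 and -0.67, and within the set 10 to 13 they were -0.27 and -0.26. Of the 10 markers of meningeal and perivascular fibroblasts, *Col1a1* and *Col1a2* among them, 0 passed, with summed levels of 245.4 to 319.7 and 254.1 to 328.4 CPM. The log2 ratio of *Cxcl12* to this sum differed by -0.14 (exact permutation p = 0.571), and its sign turned between the sets, -0.65 in libraries 2, 3 and 5 and 0.16 in libraries 10 to 13. The part of these cell types in the level of *Cxcl12* was not tested otherwise.

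*Cxcr4* is also known in microglia, and of the 10 microglial markers 0 passed and 8 had a negative log2 fold change (median -0.10), with summed levels of 434.1 to 440.6 CPM in controls and 369.1 to 422.9 CPM in mutants, without overlap. Its log2 ratio to that sum differed by 0.25 between the genotypes (exact permutation p = 0.343), by 0.59 in libraries 2, 3 and 5 and by 0.09 in libraries 10 to 13. Of 5 markers of Cajal-Retzius cells, which carry *Cxcr4* under the meninges, 3 were tested and 0 passed, *Trp73* with 55.9 ± 9.43 and 58.5 ± 6.67 normalised counts, and *Lhx1* was below the filter. Of 6 markers of dentate progenitors and immature granule cells, *Eomes* and *Neurod1* among them, 0 passed. Of 8 markers of MGE-derived interneurons 5 were lower (*Lhx6*, *Sst*, *Pvalb* and *Maf* among them) and 1, *Tac1*, was higher, while of 7 markers of interneurons from the caudal ganglionic eminence 3 were higher (*Vip*, *Adarb2* and *Cnr1*). Over all tested genes 1.87% were lower and 2.97% were higher. The MGE sum was 447.4 to 486.6 CPM in controls and 249.9 to 286.2 CPM in mutants. The caudal sum was 265.1 to 333 and 411.7 to 516.6 CPM, and neither sum overlapped between the genotypes. Of 3 general GABAergic markers, *Gad1* and *Gad2* among them, 0 passed, and so did 0 of 7 astrocyte and 0 of 5 oligodendrocyte progenitor markers, although the astrocyte sum was 5781 to 8425 CPM in controls and 8670 to 10350 CPM in mutants. Most of the astrocyte sum was *Slc1a2*, at 197100 and 267800 normalised counts (log2 fold change 0.44, adjusted p = 0.200 from edgeR). All 7 astrocyte markers had positive log2 fold changes, from 0.08 to 0.59 with a median of 0.18. The level of *Cxcr4* and *Ackr3* in interneurons alone was not measured here, and its part in the totals was not tested.

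**Figure D5:**
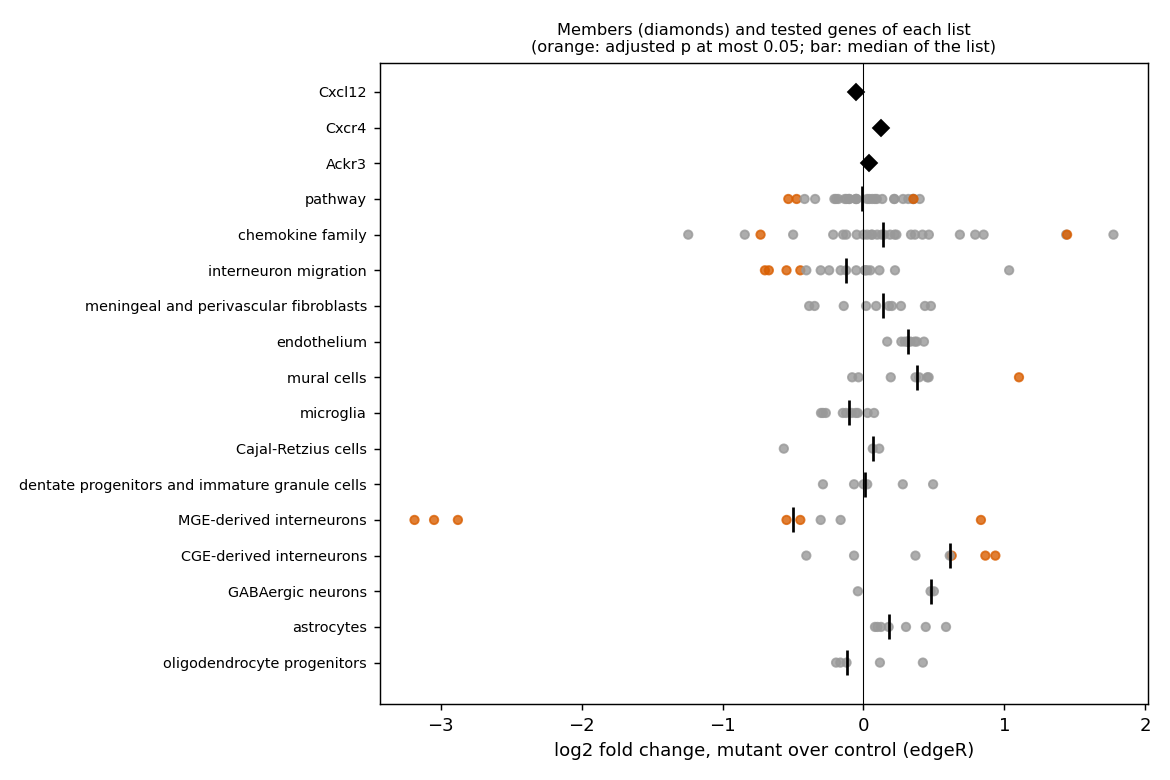
Log2 fold change of mutant over control (x axis) for the 3 genes (diamonds) and for the tested genes of each list (points; orange past an adjusted p of 0.05, grey not; vertical bars medians). The 3 genes lie close to 0, while genes of the MGE-derived interneuron list reach -3.19.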

How the data were processed

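Forebrain RNA of 4 control and 3 mutant pools of 2 animals was read as 36 bp single ends. The authors trimmed reads with CutAdapt 1.9.1, ran Bowtie2 2.2.9 against the Ensembl transcriptome (GRCm38) and deposited RSEM 1.2.31 expected counts per gene, without normalization; between 32.9% and 36.0% of the values of a library were not whole. The authors also deposited their DESeq2 comparison (fold changes, p-values, mean counts), from which only gene names were read, and an exon annotation. Strandedness of counting is not given in the sources used here. 0 columns of per-sample values were left unused.

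Expected counts were rounded, and a gene was tested if 3 or more libraries had 10 or more counts; libraries were scaled by TMM (factors 0.976 to 1.03), and genotypes were compared by edgeR 4.0.16's quasi-likelihood test in R 4.3.3, with Benjamini-Hochberg adjustment at 0.05 and no covariate. Normalised counts were scaled to the mean effective library size. Intervals are 95% intervals from the fit and cover the spread between pools; floors (3 counts) and counting errors cover counting only. No pair of libraries of a genotype differed by as little as sampling noise (chi-square per degree of freedom 9.96 to 70.8), so each counted as 1 replicate. Permutation tests were run in scipy 1.17.1. The fit was tested on simulated data. Alternatives were DESeq2 1.42.0, limma-voom (limma 3.58.1), other scalings, filters, unrounded counts, sets of libraries and each library left out; ratios and pairs of genes were added after the data were seen. For 6 of 186 list symbols with several identifiers, the identifier with the highest level was used.

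The 3 genes and the lists were chosen with earlier results of these data known. Genes named are the 3, *Lhx6*, *Erbb4*, genes of the pathway, chemokine and migration lists past the threshold and the 3 largest others in each, cell type markers past the threshold or first in their list, and the 3 genes most like each. Further list members (*Dpp4*, *Cxcl11*, *Arrb1*, *Arrb2*, *Adrbk1*, *Ackr1*, *Robo2*, *Epha4*, *Slc1a2*) were named after their values were seen. Some genes that the rule would name are not reported here.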

Additional observations from a re-analysis of the deposited data

How the results depend on the processing

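No paired analysis was possible because the columns carry library numbers and not the replicate numbers of the sample titles. In each of the 17 tested alternatives 0 of the 3 genes were called, with adjusted p from 0.677 to 0.998 for *Cxcl12*, 0.616 to 0.993 for *Cxcr4* and 0.648 to 0.979 for *Ackr3*. The sign of *Cxcl12* turned without control library 2 (0.0009), without mutant library 5 (0.0607) and in libraries 10 to 13 (0.0661), and its log2 fold change was -0.30 in libraries 2, 3 and 5. That of *Ackr3* turned with the set of libraries as a covariate (-0.0219), and without control library 2 (-0.0673), mutant library 12 (-0.0358) or mutant library 13 (-0.0285). In libraries 2, 3 and 5 the log2 fold change of *Ackr3* was -0.16. With each library left out in turn, log2 fold changes ran from -0.156 to 0.0607 for *Cxcl12*, from 0.0058 (without mutant library 5) to 0.201 for *Cxcr4* and from -0.0673 to 0.19 for *Ackr3*, calls over all genes from 302 (without mutant library 13) to 969, pathway calls from 0 to 3, chemokine calls from 0 to 2 and migration calls from 0 to 3. Calls over all genes, 954 in the main test, were 1731 and 1734 with DESeq2 without and with its beta prior, 2205 with the set as a covariate (pathway 7) and 1923 in libraries 10 to 13. Per longest transcript *Cxcl12* was at 11.8 CPM per kb, and its log2 ratios were 2.89 to *Cxcr4* and 1.52 to *Ackr3*. The causes of these shifts were not tested. Among values of the other named genes under these settings, 137 stayed on their side of the threshold, 42 no longer passed, 1 moved and 0 turned sign. The depth limits *Cxcr4* most, whose counts of 80 to 132 carry a counting error of up to 11.2%.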
